A study of Mus musculus with 8 samples.

Results

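Integrins are receptors made of an alpha and a beta chain that hold cells to the extracellular matrix or to other cells, and cadherins are calcium-dependent receptors that join cells of like kind. Genes of both families were compared in the lungs of control mice, mice given lipopolysaccharide (LPS) and mice given LPS and YW3-56. Members were the protein-coding genes whose symbols begin with Itga, Itgb or Cdh followed by a subunit or family number or letter, without Itga2b of platelets and Cdh5 of endothelium. The rule found 47 members, 25 integrins (17 alpha and 8 beta chains) and 22 cadherins, of 21627 protein-coding genes among the 55416 identifiers in the files.

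Lung RNA was sequenced from 8 female mice, 6 to 8 weeks old, of the strain labelled C57BL/6 (C57BL/6J in the methods), with no genetic change stated. The 3 control mice (numbered 1, 2 and 4) were given dimethyl sulfoxide into the tail vein and then saline into the peritoneum, and the 3 LPS mice (1, 6 and 7) were given LPS at 35 mg/kg. The 2 dual-treated mice (2 and 5) were given YW3-56, an inhibitor of protein arginine deiminases (labelled as a PAD4 inhibitor), at 10 mg/kg in dimethyl sulfoxide shortly before the same dose of LPS. The lungs were taken 24 h after LPS, from 1 side of the lung. The methods state that 3 mice were taken per group, while the labels give 2 for the dual treatment, and they name no dimethyl sulfoxide for the LPS group, which the abstract describes as given LPS alone. The solvent and YW3-56 therefore cannot be told apart in dual-treated against LPS lungs. By the same methods LPS against control, written below as "with LPS", differs in the solvent as well, and LPS and the lack of solvent cannot be told apart there. Total counts per library ran from 19061949 to 20908608, so that 1 count corresponded to between 0.0439 and 0.0593 units of normalized CPM, the counts scaled to a common library size.

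In an integrin the alpha chain largely sets which ligand is bound, and the beta chain links the receptor to talin, kindlin and the actin cytoskeleton. Leukocytes use integrins to stick to the vessel wall and leave the blood, while lung epithelium, endothelium and fibroblasts use them to hold to laminin, collagen and fibronectin. Classical cadherins bind their like on the next cell and are tied to actin through catenins, and E-cadherin in this way seals the epithelium of the airways and alveoli.

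Of the 47 members, 38 had enough counts to be tested, all 25 integrins and 13 of the 22 cadherins. The other 9 (Cdh7, Cdh8, Cdh9, Cdh10, Cdh12, Cdh15, Cdh18, Cdh19 and Cdh20) had at most 20 counts in any library, and Cdh7 had 0 in all 8. A member was called higher or lower in a comparison when its Benjamini-Hochberg adjusted p over the 18560 tested genes, from edgeR's quasi-likelihood test, was under 0.05. Each adjusted p below comes from that test, and a log2 fold change is written log2FC with its standard error (SE). With LPS against control, 12 members were higher and 9 lower (31.6% and 23.7% of those tested), while 32.6% of all tested genes were higher and 33.9% lower. In dual-treated against control lungs 8 members were higher and 7 lower (21.1% and 18.4%), beside 9.13% and 7.02% of all tested genes. In dual-treated against LPS lungs 10 members were higher and 8 lower (26.3% and 21.1%), beside 31.7% and 27.4% of all tested genes. The median log2FC of the tested members was 0.24, -0.06 and -0.15 in the 3 comparisons, and that of all tested genes was -0.010, 0.004 and 0.060. The comparisons share mice, so their values are set side by side and are not separate evidence. A filter on low counts kept the tested members, so these shares do not describe all 47.

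**Figure D1:**
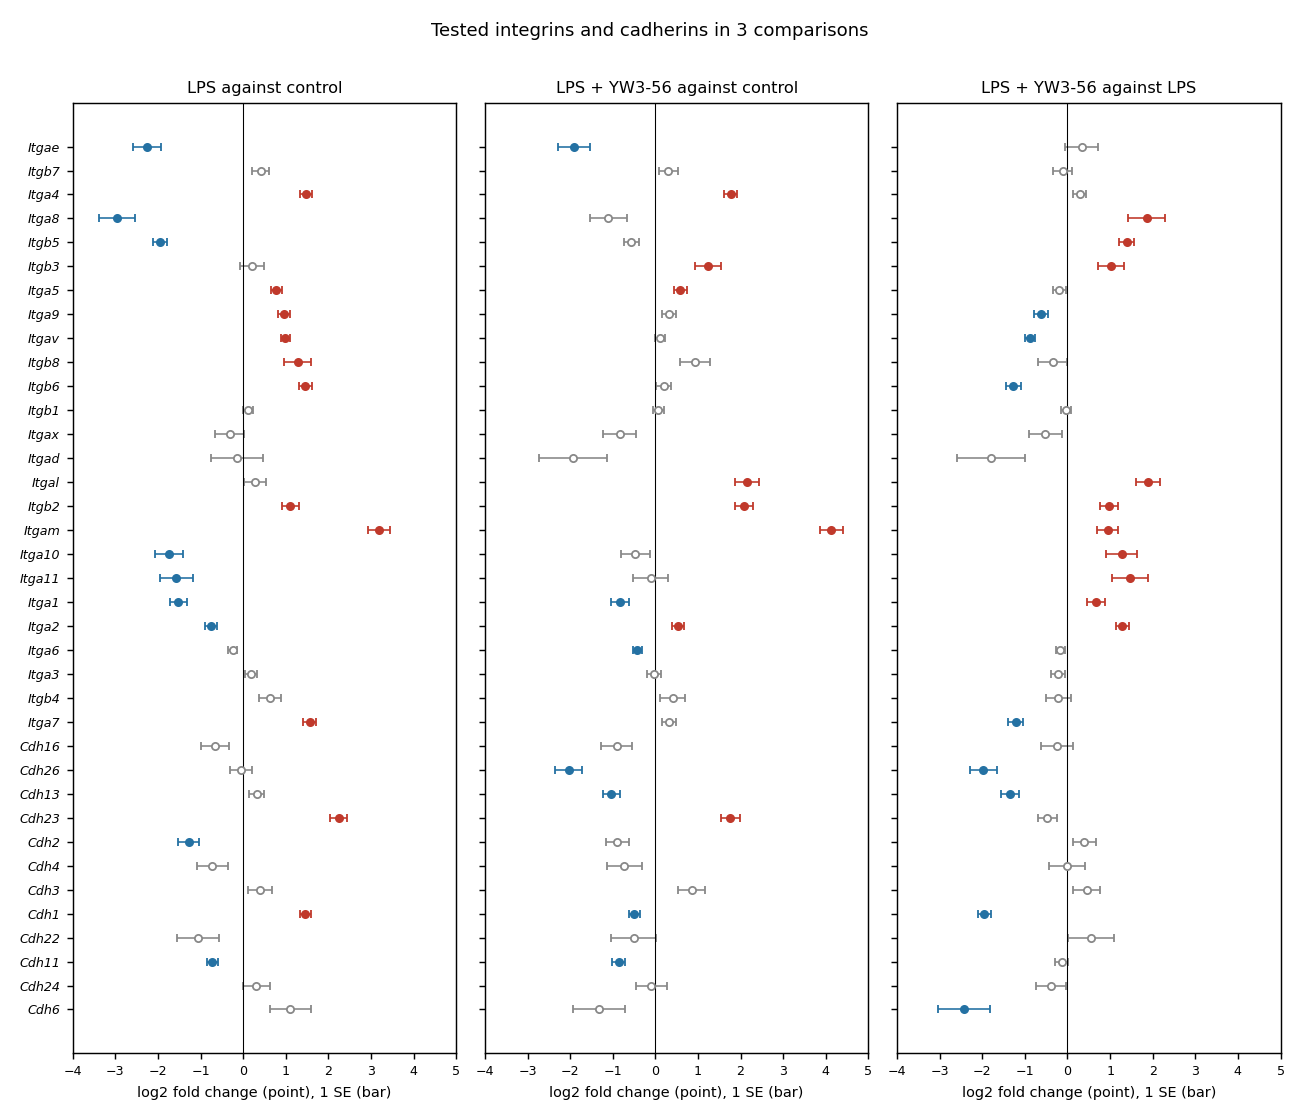
The log2 fold change (horizontal axis, points) and 1 SE (bars) of the tested integrins and cadherins other than Cdh17, which had under 10 counts in every control library, is plotted in 3 comparisons, with filled points for those called higher (red) or lower (blue) at an adjusted p under 0.05 and open points for the rest. Itgam lies furthest to the right with LPS, at 3.19, and Itga8 furthest to the left, at -2.96.

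The scaling of the libraries bears on these counts, since the TMM factors were 1.06 to 1.08 in control, 0.810 to 0.930 in LPS and 1.09 to 1.11 in dual-treated libraries. With library size alone as the scaling, the median log2FC of all genes moved to -0.294 with LPS and to 0.383 in dual-treated against LPS lungs. The share of called genes that were higher then went from 49.0% to 35.6% with LPS and from 53.6% to 71.0% in dual-treated against LPS lungs. For members the count was then 12 higher and 13 lower with LPS, beside 23.4% and 42.2% of all tested genes, and 13 higher and 7 lower in dual-treated against LPS lungs, beside 42.5% and 17.4%. In dual-treated against control lungs the share of all called genes that were higher was 56.6%, and 73.4% when a fold change over 2 was asked for as well. It was 63.8% with library size alone, 53.3% with relative log expression factors and 49.7% with DESeq2.

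Libraries of LPS mice 6 and 7 stood apart from that of LPS mouse 1. Of 8 squamous epithelium markers 7 were tested, 6 were higher with LPS and 5 were lower in dual-treated than in the LPS lungs, and their summed level was 46.1, 29.1 and 32.7 CPM in control, 36, 685 and 1923 in LPS and 45 and 58.2 in dual-treated mice. Sbsn, which was not called, was the most abundant of them per length in control and dual-treated lungs and Krt13 in LPS lungs, through LPS mice 6 and 7, and Krt16, Crct1 and Sprr1b had 0 counts in each control library. The 6 called squamous markers held at most 6 counts in any control library and at most 5 in LPS mouse 1, so their calls came through LPS mice 6 and 7. Krt13 had 12 and 20 counts and Krt6a 15 and 39 in the dual-treated libraries, enough for the filter on low counts. The other called squamous markers passed that filter through LPS mice 6 and 7. The 6 skeletal muscle markers were all higher with LPS and all lower in dual-treated than in the LPS lungs. They summed to 9.59, 30.1 and 15.3 CPM in control, 19.9, 384 and 1044 in LPS and 5.58 and 6.45 in dual-treated mice. Per length Acta1 was the most abundant in LPS lungs, through LPS mice 6 and 7, and Mylpf in dual-treated lungs. In control lungs Myl1 and Mylpf lay within their spread of each other, at 1.98 ± 2.14 and 1.41 ± 0.255 RPKM. Both sums were thus high in LPS mice 6 and 7 and near control in LPS mouse 1, and 0 of either list were called by edgeR in dual-treated against control lungs. Tnnt3, at 6.64 CPM in LPS mouse 1 and 2.71 to 3.72 in control, was the only 1 of the 6 muscle markers with every LPS mouse above every control mouse. In both dual-treated mice 4 of the 6 lay below every LPS mouse, LPS mouse 1 among them. Without LPS mice 6 and 7, the remaining LPS mouse being taken to vary like the other groups, 13 members were higher and 9 lower with LPS, beside 27.1% and 28.4% of all genes tested in that fit. In dual-treated against LPS lungs 6 members were then higher and 10 lower, beside 25.9% and 23.2% of all genes. Members whose call changed in that fit are named below with their values, and the part of squamous and muscle tissue in them was not tested.

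Levels of different genes are compared per length, as CPM per kilobase of exon (RPKM). In control lungs Itgb1 stood highest, at 101 ± 2.45 RPKM (mean ± SD, n = 3), then Itga3 at 64.5 ± 3.59 and Cdh1 at 64.3 ± 0.577, which did not differ beyond their spread. Itgb5 followed at 20 ± 1.43 RPKM and Itgb2 at 16.8 ± 3.39. In LPS lungs Cdh1 stood first at 177 ± 25.9 RPKM, followed by Itgb1 at 109 ± 10.4, Itga3 at 73.7 ± 11.3 and Itgb2 at 36.2 ± 7.26 (n = 3). In dual-treated lungs the order was Itgb1 at 106 ± 7.83 RPKM, Itgb2 at 71.7 ± 15.1, Itga3 at 63.2 ± 11.4 and Cdh1 at 45.8 ± 2.87 (n = 2), and Itgb2 and Itga3 lay within their spread of each other. The first 3 places in control lungs stayed in this order when the longest transcript was used as the length, with 117 RPKM for Itgb1, 73.1 for Itga3 and 66.7 for Cdh1.

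The leukocyte integrins that share the beta-2 chain were examined first. In all sentences on single genes, values are TMM-normalized CPM in control mice 1, 2 and 4, in LPS mice 1, 6 and 7 and in dual-treated mice 2 and 5, in that order. Itgam (ENSMUSG00000030786, chromosome 7, 127661808 to 127717753 in GRCm39) encodes CD11b, the alpha chain of the complement receptor of neutrophils and monocytes. Its level was 6.65, 4.79 and 6.76 CPM in control, 42.4, 73.4 and 50.5 in LPS and 130 and 83.4 in dual-treated mice. No groups overlapped, every LPS mouse lay above the controls, and both dual-treated mice lay above every LPS mouse. Itgam rose with LPS, with a log2FC of 3.19 (SE 0.258, adjusted p = 5.96e-06), and was higher in dual-treated lungs by 4.13 (SE 0.275, adjusted p = 3.95e-05) against control. Against LPS the log2FC was 0.94 (SE 0.249, adjusted p = 0.00923), and without dual-treated mouse 2 it was 0.56 and no longer called (adjusted p = 0.133). In whole-lung RNA, more or fewer cells of a type and more or less RNA per cell cannot be told apart. Of its exon bases 67.4% also lie in Gm49368, a predicted gene on the same strand that had at most 7 counts in any library, so reads in the shared bases may have been left out of the count.

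Itgb2 (ENSMUSG00000000290, chromosome 10, 77366086 to 77401542), the beta chain common to these receptors, was the most abundant of them per length. It stood at 59.5, 42 and 62.3 CPM in control, 107, 145 and 101 in LPS and 198 and 267 in dual-treated mice. The groups again did not overlap and followed the same order as for Itgam. Its log2FC was 1.11 (SE 0.194, adjusted p = 0.000741) with LPS, 2.09 (SE 0.212, adjusted p = 0.000317) in dual-treated lungs against control and 0.98 (SE 0.21, adjusted p = 0.00304) against LPS.

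Itgal (ENSMUSG00000030830, chromosome 7, 126895432 to 126934320), the CD11a chain of LFA-1 carried by lymphocytes and myeloid cells alike, went another way. Its values were 29.8, 22.1 and 29.7 CPM in control, 27.3, 40.9 and 30 in LPS and 79.6 and 162 in dual-treated mice. LPS and control mice overlapped, and both dual-treated mice lay above all 6 others, mouse 5 furthest. The log2FC with LPS was 0.27 (SE 0.259, adjusted p = 0.381) and did not pass the threshold. In dual-treated lungs Itgal was higher by 2.15 (SE 0.281, adjusted p = 0.00118) against control and by 1.88 (SE 0.28, adjusted p = 0.000378) against LPS, and without dual-treated mouse 5 the latter was 1.25 (adjusted p = 0.00301).

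The other beta-2 partners passed the test in no comparison. Itgax, which encodes CD11c of alveolar macrophages and dendritic cells, had between 10.4 and 32.6 CPM over the 8 mice, and its log2FC was -0.32 with LPS, -0.84 in dual-treated lungs against control and -0.52 against LPS. Both dual-treated mice lay below the controls, and LPS mouse 7 was the lowest of all. Without LPS mouse 7 Itgax was lower in dual-treated than in the LPS lungs (log2FC -0.86, adjusted p = 0.0218), as it was without LPS mice 6 and 7 (-1.03, adjusted p = 0.0296). Itgad, a further alpha chain of this group, stayed below 1 CPM in every mouse, with 8 and 1 counts in the dual-treated mice.

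Itgal, Itgam, Itgax and Itgad lie on chromosome 7 in GRCm39, between 126895432 and 127822988, and Itgam, Itgax and Itgad follow one another on the plus strand. Itgam ends at 127717753 and Itgax begins at 127728668, so that a gene that rose with LPS lay beside a gene that was not called. RefSeq promoter sequences (250 bases before to 50 after a gene's start, table build GRCm38.p6) matched 30 of the 47 members by symbol, with 34 promoters. They were searched on both strands for GAGGAA, the core of the PU box read by the myeloid factor PU.1, and for TGANTCA, the AP-1 element, in which N is any base. GAGGAA was found in 14 of the 34 member promoters and in 28.3% of all 32851 promoters, and TGANTCA in 3 of 34 and in 7.81%. The promoters of Itgam and Itgax are shown because these neighbours differed in their response. They were matched to GRCm39 at chr7:127661562-127661861 and chr7:127728472-127728771, both on the plus strand, where each occurs once, and capitals mark GAGGAA or its reverse complement TTCCTC.
Itgam: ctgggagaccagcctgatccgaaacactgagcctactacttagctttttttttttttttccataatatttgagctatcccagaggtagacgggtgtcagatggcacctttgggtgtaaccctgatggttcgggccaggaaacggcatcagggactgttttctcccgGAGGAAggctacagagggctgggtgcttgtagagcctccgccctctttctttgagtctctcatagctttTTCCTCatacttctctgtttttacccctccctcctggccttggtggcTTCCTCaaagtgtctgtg
Itgax: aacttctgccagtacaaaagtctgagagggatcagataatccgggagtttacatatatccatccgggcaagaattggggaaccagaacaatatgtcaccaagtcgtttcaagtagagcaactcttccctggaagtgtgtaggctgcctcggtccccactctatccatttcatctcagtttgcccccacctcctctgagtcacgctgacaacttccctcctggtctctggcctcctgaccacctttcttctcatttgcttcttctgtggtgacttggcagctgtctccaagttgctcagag
The Itgam window held 3 matches of GAGGAA and 0 of TGANTCA, while the Itgax window held 0 of GAGGAA and 1 of TGANTCA. These matches are a description of letters in the windows and say nothing of what binds there.

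The alpha-4 and beta-7 chains, which take lymphocytes and monocytes to VCAM-1, MAdCAM-1 and E-cadherin, parted from each other. Itga4 (ENSMUSG00000027009, chromosome 2, 79085660 to 79163467), the alpha chain of VLA-4, had 14.6, 12.5 and 11.6 CPM in control, 34.6, 37.5 and 36.2 in LPS and 36.8 and 51.5 in dual-treated mice. Every treated mouse lay above every control mouse, and the treated groups overlapped. Its log2FC was 1.48 (SE 0.146, adjusted p = 1.87e-05) with LPS and 1.77 (SE 0.157, adjusted p = 0.00016) in dual-treated lungs, both against control, and 0.29 (SE 0.155, adjusted p = 0.133) between the treated groups. The last was called without dual-treated mouse 2, at 0.49, and with library size alone, at 0.61 (adjusted p = 0.00998). The median log2FC of all genes under that scaling was 0.383. Of its exon bases 20.8% lie opposite Cerkl, which had at most 10 counts.

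Itgae (ENSMUSG00000005947, chromosome 11, 72981409 to 73039917), the CD103 chain of intraepithelial lymphocytes and some dendritic cells, had 2.79, 3.24 and 3.86 CPM in control, 0.475, 0.924 and 0.67 in LPS and 0.908 and 0.834 in dual-treated mice. It was low in all treated mice, which overlapped each other and lay below every control mouse. It fell by 2.25 on the log2 scale with LPS (SE 0.33, adjusted p = 0.00024) and by 1.91 with the dual treatment (SE 0.366, adjusted p = 0.00811), and without dual-treated mouse 2 the latter missed the threshold (adjusted p = 0.0524). Itgb7 (ENSMUSG00000001281, chromosome 15, 102124429 to 102140379), the shared beta chain and the most abundant of these per length, had 19.9, 19.9 and 19.3 CPM in control, 21.1, 33.7 and 23.7 in LPS and 19.1 and 29.5 in dual-treated mice. The dual-treated mice fell on either side of the controls, and no comparison passed the test, with log2FC from -0.11 to 0.41. Without LPS mouse 1 its difference with LPS was called (0.55, adjusted p = 0.0394).

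**Figure D2:**
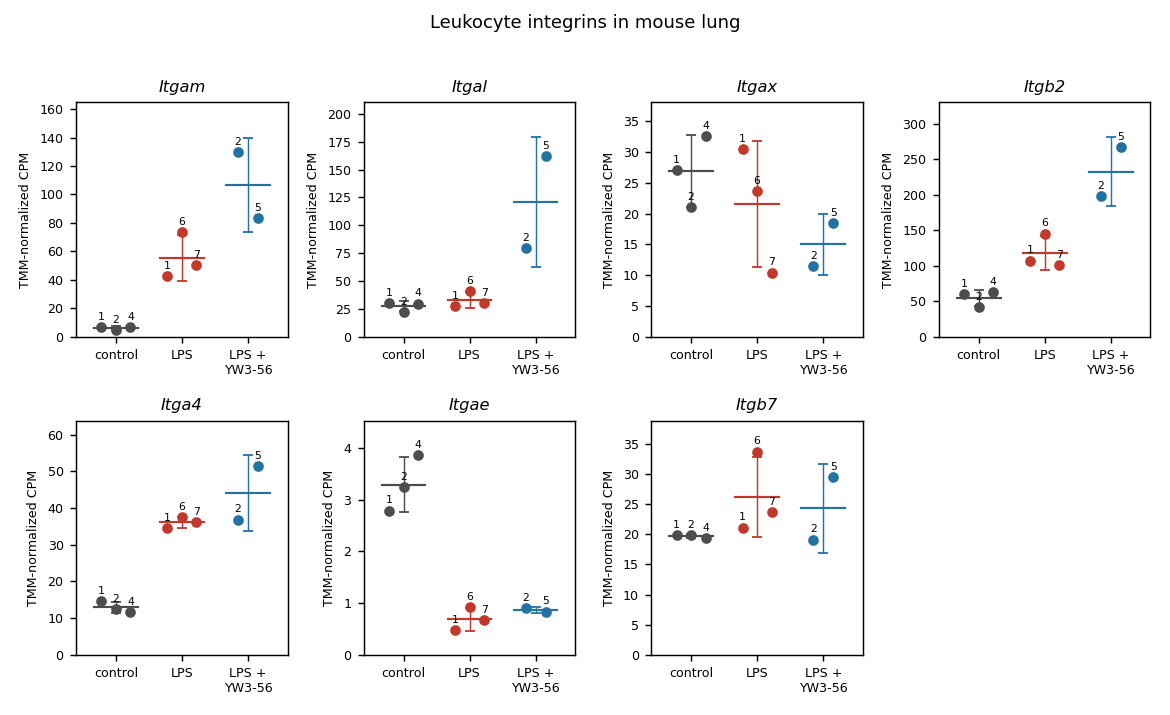
TMM-normalized CPM (vertical axis, linear from 0) of the 7 leukocyte integrin genes named is plotted in each mouse by group (horizontal axis), with mouse numbers beside the points and the group mean ± SD as lines. Itgam, Itgb2 and Itgal are highest in both dual-treated mice, while Itgae is low in all 5 treated mice.

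Markers of the cells that carry these integrins were measured in the same libraries, and their calls are to be read beside the shares of all tested genes (32.6% higher and 33.9% lower with LPS, 9.13% and 7.02% with the dual treatment against control, and 31.7% and 27.4% against LPS). All 8 neutrophil markers were higher with LPS, 7 were higher in dual-treated than in the control lungs, and 4 were higher and 1 lower in dual-treated than in the LPS lungs. Their summed level was 231, 128 and 134 CPM in control, 2190, 3059 and 1915 in LPS and 1800 and 2483 in dual-treated mice, with S100a9 the most abundant per length, so the LPS and dual-treated mice overlapped in this sum. The largest called changes between dual-treated and LPS lungs were those of Ly6g (-2.75), Retnlg (1.49) and Cxcr2 (1.48). Of 8 monocyte and macrophage markers 1 was higher and 3 lower with LPS, and 6 were higher in dual-treated lungs in each of the other comparisons. Ccr2, C1qa and Adgre1 led in dual-treated against LPS lungs, with log2FC of 3.77, 2.64 and 2.13, and Ly6c2 and Ccr2 led with LPS, at 3.37 and -3.19. The sum of the list was 6251, 5776 and 7681 CPM in control, 5767, 4745 and 3410 in LPS and 6455 and 8836 in dual-treated mice, with Lyz2 the most abundant per length. Lyz2 made up most of this sum in every mouse, and it was called only in dual-treated against LPS lungs (0.67). Alveolar macrophage markers summed to 801, 548 and 744 CPM in control, 870, 943 and 490 in LPS and 934 and 1529 in dual-treated mice (Chil3 the most abundant), with 1 of 6 higher and 2 lower with LPS, 1 higher with the dual treatment against control, and 3 higher and 1 lower against LPS. Among 7 dendritic cell markers, which summed to between 77.4 and 143 CPM over the 8 mice with Clec9a the most abundant per length in control and dual-treated lungs and Ccl22 in LPS lungs, 1 was higher and 6 lower with LPS, led by Clec9a (-6.62), and 4 were lower in dual-treated than in the control lungs, where Cd209a had 0 and 2 counts in the dual-treated mice. In dual-treated against LPS lungs 2 were higher, Clec9a (5.48) and Zbtb46 (1.55), and 2 lower, Cd209a and Ccl22 (-4.13). Ccl22, at 98.5, 84.7 and 69.3 CPM in LPS mice against 8.76, 7.09 and 8 in control, made up most of the sum in the LPS mice. The part of these cells in the integrin values was not tested.

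Lymphocyte, natural killer and platelet markers were low. T cell markers summed to between 6.99 and 17.6 CPM in the 8 mice (Trac the most abundant per length), with 1 of 7 higher and 2 lower with LPS, 0 called with the dual treatment against control and 2 lower against LPS by edgeR. B cell markers summed to 39.9, 44.2 and 41.4 CPM in control, 28.6, 28.2 and 20 in LPS and 76.7 and 28.4 in dual-treated mice, highest in dual-treated mouse 2 alone. The most abundant per length was Cd79b in control and LPS lungs. In dual-treated lungs Cd79a and Cd79b lay within their spread of each other, at 11.5 ± 10.3 and 11.4 ± 6.22 RPKM. Of 5, 2 were lower with LPS, 0 were called with the dual treatment against control by edgeR and 2 were higher against LPS, Ms4a1 (3.26) and Cd79a (2.25), of which Cd79a had 28.6 and 6.5 CPM in the dual-treated and 3.97, 4.45 and 2.62 in the LPS mice and so rests largely on mouse 2. Natural killer markers summed to 8.07, 6.48 and 9.33 CPM in control, 32.6, 27.7 and 12.1 in LPS and 29.9 and 61.3 in dual-treated mice, with Gzma the most abundant per length. Gzma was the only 1 of the 4 called higher with LPS (2.03) and carried the sum, while Ncr1 was called lower (-2.18, from 6, 7 and 22 counts in control to 3, 2 and 1 in LPS libraries), and the median log2FC with LPS was -0.56. With the dual treatment 1 was higher against control and 3 were higher against LPS. Platelet markers, which bear on Itgb3, summed to 55.8, 38.2 and 79.2 CPM in control, 130, 86.4 and 63.8 in LPS and 57.7 and 86.3 in dual-treated mice (the most abundant per length being Ppbp in control and LPS lungs and Pf4 in dual-treated lungs). Of 5 tested, 2 were higher with LPS, Gp1ba (0.85) and Pf4 (0.67), Pf4 was higher with the dual treatment against control (1.12), and 3 were lower against LPS, while Gp1bb had 0 counts in every library.

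The 4 collagen-binding alpha chains, which pair with the beta-1 chain, were all lower with LPS and all higher in dual-treated than in the LPS lungs (beside 33.9% and 31.7% of all tested genes), with median log2FC of -1.54 and 1.28. Itga1 (ENSMUSG00000042284, chromosome 13, 115089632 to 115238677), found on capillaries, fibroblasts and smooth muscle, was the most abundant of them per length. It had 156, 181 and 202 CPM in control, 71, 53.1 and 64.5 in LPS and 75.5 and 127 in dual-treated mice. No groups overlapped, and dual-treated mouse 2 lay close to the LPS mice. Its log2FC was -1.52 (SE 0.195, adjusted p = 0.000101) with LPS, -0.83 (SE 0.218, adjusted p = 0.0305) in dual-treated lungs against control and 0.68 (SE 0.212, adjusted p = 0.0195) against LPS. The last rested on dual-treated mouse 5, as it was 0.24 without that mouse (adjusted p = 0.29) and 0.50 without LPS mice 6 and 7 (adjusted p = 0.192). The difference from control was not called without dual-treated mouse 2 (-0.54, adjusted p = 0.138), nor without control mouse 2 or control mouse 4. Of its exon bases 13.4% are shared with the antisense gene Mocs2 and with Gm49395, and the strand setting of the count was not stated. Mocs2 had 44 to 65.6 CPM over the 8 mice.

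Itga2 (ENSMUSG00000015533, chromosome 13, 114969617 to 115068636), which lies near Itga1 and is the collagen receptor chain of epithelium and platelets, had 13.3, 14.3 and 13 CPM in control, 6.94, 8.84 and 8.21 in LPS and 20.2 and 18.7 in dual-treated mice. LPS mice were lowest and dual-treated mice highest, without overlap. It fell by 0.76 on the log2 scale with LPS (SE 0.14, adjusted p = 0.00102) and was higher by 1.28 (SE 0.152, adjusted p = 0.000101) in dual-treated than in the LPS lungs. Against control the dual-treated lungs were higher by 0.53 (SE 0.15, adjusted p = 0.042), a call that was lost whenever any control or dual-treated mouse was left out, with adjusted p from 0.0953 to 0.268. Of the exon bases of Itga2, 6.22% are shared with Mocs2 on the other strand, at 44 to 65.6 CPM, and its reads may bear on the count of Itga2.

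Itga10 (ENSMUSG00000090210, chromosome 3, 96552900 to 96571835) and Itga11 (ENSMUSG00000032243, chromosome 9, 62585108 to 62691617), collagen receptor chains of cartilage-like and mesenchymal cells, stood at low levels. Itga10 had 6.36, 6.62 and 6.12 CPM in control, 1.01, 1.79 and 2.9 in LPS and 4.99 and 4.21 in dual-treated mice. The groups did not overlap, and LPS mouse 1 was the lowest. Its log2FC was -1.74 (SE 0.327, adjusted p = 0.00115) with LPS and 1.27 (SE 0.355, adjusted p = 0.0123) in dual-treated against LPS lungs, and the latter was lost without dual-treated mouse 2 (1.11, adjusted p = 0.0653). Without LPS mice 6 and 7 both were larger, at -2.65 and 2.18. Itga11 had 3.67, 3.38 and 3.26 CPM in control, 1.6, 0.462 and 1.4 in LPS and 2.77 and 3.6 in dual-treated mice. LPS mice lay below all others, and dual-treated mice overlapped the controls. Its log2FC was -1.57 (SE 0.391, adjusted p = 0.00568) with LPS and 1.46 (SE 0.423, adjusted p = 0.0144) in dual-treated against LPS lungs, and the latter was not called without dual-treated mouse 5 (1.24, adjusted p = 0.0782) or without LPS mice 6 and 7 (0.98, adjusted p = 0.0532). Of the exon bases of Itga10, 33.5% are shared with Gm42957, which had 0 counts.

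Itgb1 (ENSMUSG00000025809, chromosome 8, 129411876 to 129460618), the beta chain shared by the collagen, laminin and several fibronectin receptors, had 586, 615 and 605 CPM in control, 710, 658 and 586 in LPS and 667 and 601 in dual-treated mice. All groups overlapped, and its log2FC was 0.11 (SE 0.111, adjusted p = 0.382) with LPS, 0.07 (SE 0.123, adjusted p = 0.735) with the dual treatment and -0.04 (SE 0.124, adjusted p = 0.799) between the treated groups. With library size alone as the scaling the last turned to 0.29 and was called (adjusted p = 0.034), while the median log2FC of all genes under that scaling was 0.383. A missed threshold does not show that the level was equal.

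Among the laminin-binding chains, which hold epithelium, endothelium and muscle to basement membranes, Itga7 (ENSMUSG00000025348, chromosome 10, 128769621 to 128794169) changed most. It had 32.8, 30.4 and 38.1 CPM in control, 117, 80.7 and 100 in LPS and 46.6 and 38.6 in dual-treated mice. Every LPS mouse lay above every other mouse, with LPS mouse 1 the highest. It rose with LPS by 1.56 (SE 0.152, adjusted p = 1.78e-05) and was lower in dual-treated than in the LPS lungs, with a log2FC of -1.22 (SE 0.172, adjusted p = 0.000275), while its log2FC against control in dual-treated lungs was 0.33 (SE 0.166, adjusted p = 0.21). Itga7 is a chain of skeletal muscle as well, and skeletal muscle markers summed to near the control level in LPS mouse 1. With that mouse as the only LPS mouse, the log2FC of Itga7 against control was 1.79. The part of muscle in the values of Itga7 was not tested.

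Itga6 (ENSMUSG00000027111, chromosome 2, 71575960 to 71689757), which pairs with the beta-1 or the beta-4 chain, had 95.8, 92.8 and 92.3 CPM in control, 75.9, 86.9 and 74.1 in LPS and 64.3 and 76.1 in dual-treated mice. All treated mice lay below the controls. It was lower in dual-treated than in the control lungs, with a log2FC of -0.42 (SE 0.112, adjusted p = 0.034), a call lost when any control mouse or dual-treated mouse 2 was left out, with adjusted p from 0.0767 to 0.214. With LPS its log2FC was -0.25 (SE 0.099, adjusted p = 0.0507) and missed the threshold. With library size alone it was -0.53 and passed (adjusted p = 0.00167), while the median log2FC of all genes under that scaling was -0.294. Itga3 (ENSMUSG00000001507, chromosome 11, 94935296 to 94967682), the most abundant of these chains per length, had 400, 364 and 363 CPM in control, 497, 424 and 366 in LPS and 415 and 321 in dual-treated mice. The groups overlapped, and its log2FC ran from -0.22 to 0.19 over the comparisons without passing the test.

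Itgb4, the beta chain of hemidesmosomes and of squamous and basal epithelium, was called in no comparison, but its value in LPS mouse 7 was 65.4 CPM, against 24.6 to 40.2 in the 7 other mice. That mouse also had the highest squamous marker sum, 1923 CPM, and the part of squamous tissue in the values of Itgb4 was not tested. The log2FC with LPS was 0.63 (SE 0.262, adjusted p = 0.0572), and it passed the threshold with DESeq2 (adjusted p = 0.0205), with relative log expression factors (adjusted p = 0.0469 by edgeR) and without the filter on low counts. Without LPS mouse 7 it was 0.20 (adjusted p = 0.207). Of its exon bases 14.9% are shared with Galk1 on the other strand, which had 31.6, 33.3 and 36.1 CPM in control, 17.4, 15.2 and 17.1 in LPS and 40.5 and 45.3 in dual-treated mice, and with the strand setting unknown its reads may bear on the count of Itgb4.

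The alpha-V chain and the receptors of fibronectin, vitronectin and osteopontin were divided. Itgav (ENSMUSG00000027087, chromosome 2, 83554403 to 83637260), the alpha chain common to receptors that bind RGD ligands and latent TGF-beta, had 47.9, 45.9 and 45.9 CPM in control, 105, 81.7 and 91.2 in LPS and 49.2 and 51 in dual-treated mice. LPS mice lay above all others, and the dual-treated mice lay just above the controls. Its log2FC was 0.99 (SE 0.103, adjusted p = 2.54e-05) with LPS and -0.89 (SE 0.117, adjusted p = 0.000182) in dual-treated against LPS lungs, and 0.11 (SE 0.114, adjusted p = 0.584) in dual-treated against control lungs.

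Itgb6 (ENSMUSG00000026971, chromosome 2, 60428636 to 60553035), the epithelial partner of alpha-V that activates latent TGF-beta, had 18.9, 15.9 and 21.4 CPM in control, 60.8, 49 and 45.4 in LPS and 23.8 and 19.1 in dual-treated mice. LPS mice again lay above all others, and dual-treated mice overlapped the controls. It rose with LPS by 1.46 (SE 0.158, adjusted p = 3.24e-05) and was lower in dual-treated than in the LPS lungs, with a log2FC of -1.27 (SE 0.179, adjusted p = 0.00028). Itgb5 (ENSMUSG00000022817, chromosome 16, 33649988 to 33771137), another partner of alpha-V and the most abundant beta chain of this group per length in control lungs, went the opposite way. Its values were 132, 139 and 152 CPM in control, 35.5, 36.8 and 37.3 in LPS and 73.5 and 118 in dual-treated mice. The groups did not overlap, LPS mice were lowest, and dual-treated mouse 5 lay nearer to the controls than mouse 2. It fell by 1.95 on the log2 scale with LPS (SE 0.16, adjusted p = 6.41e-06) and was higher by 1.39 (SE 0.171, adjusted p = 0.000124) in dual-treated than in the LPS lungs. Against control the dual-treated value of -0.56 (SE 0.173, adjusted p = 0.0551) missed the threshold and passed it with DESeq2 (adjusted p = 0.0145) and without dual-treated mouse 5 (-0.97, adjusted p = 0.00167).

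Itgb3 (ENSMUSG00000020689, chromosome 11, 104498826 to 104561302), the alpha-V partner of endothelium that also serves platelets, had 53.4, 50.6 and 57.2 CPM in control, 72.2, 61.9 and 51.9 in LPS and 181 and 71.2 in dual-treated mice. Dual-treated mouse 2 stood far above all others, while mouse 5 overlapped the LPS mice. The log2FC was 0.21 (SE 0.279, adjusted p = 0.534) with LPS, 1.23 (SE 0.305, adjusted p = 0.0244) in dual-treated lungs against control and 1.02 (SE 0.305, adjusted p = 0.0165) against LPS. Without dual-treated mouse 2 these last were 0.38 (adjusted p = 0.243) and 0.18 (adjusted p = 0.4), so both calls rested on that mouse. Leaving out any control mouse also ended the call against control, and leaving out LPS mouse 7, or LPS mice 6 and 7 (0.80, adjusted p = 0.182), ended that against LPS. Itgb8 (ENSMUSG00000025321, chromosome 12, 119121748 to 119202584), a further TGF-beta activating chain, was low, with 0.881, 1.17 and 0.782 CPM in control, 1.84, 2.54 and 2.51 in LPS and 1.5 and 2.11 in dual-treated mice. All treated mice lay above the controls, and only the LPS comparison was called, at 1.28 (SE 0.319, adjusted p = 0.00577), which was lost in LPS mouse 1 alone (0.96, adjusted p = 0.108).

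Itga8 (ENSMUSG00000026768, chromosome 2, 12110900 to 12307214), the nephronectin and fibronectin receptor chain of alveolar fibroblasts and smooth muscle, fell furthest of all tested members. It had 104, 104 and 112 CPM in control, 23.2, 8.84 and 9.27 in LPS and 27.9 and 71.7 in dual-treated mice. The groups did not overlap, LPS mouse 1 kept more than LPS mice 6 and 7, and dual-treated mouse 2 lay close to LPS mouse 1. It fell by 2.96 on the log2 scale with LPS (SE 0.42, adjusted p = 0.000193), and in LPS mouse 1 alone the log2FC was -2.20 (adjusted p = 0.0064). In dual-treated lungs its log2FC was -1.10 (SE 0.441, adjusted p = 0.124) against control and 1.86 (SE 0.44, adjusted p = 0.0053) against LPS. The latter was 1.01 without dual-treated mouse 5 (adjusted p = 0.0727) and 1.10 without LPS mice 6 and 7 (adjusted p = 0.0919), past the threshold in neither fit. The difference from control was called without dual-treated mouse 5, at -1.97 (adjusted p = 0.0201).

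Itga9 (ENSMUSG00000039115, chromosome 9, 118435722 to 118730072), the tenascin and VCAM-1 receptor chain of smooth muscle, airway epithelium and neutrophils, had 71, 72.8 and 93.3 CPM in control, 183, 140 and 139 in LPS and 107 and 92 in dual-treated mice. LPS mice lay above all others, and dual-treated mouse 5 lay within the control range. Its log2FC was 0.96 (SE 0.149, adjusted p = 0.000332) with LPS and -0.63 (SE 0.168, adjusted p = 0.00975) in dual-treated against LPS lungs, which missed the threshold with library size alone (-0.29, adjusted p = 0.106) and without dual-treated mouse 5 (-0.54, adjusted p = 0.0559). Itga5 (ENSMUSG00000000555, chromosome 15, 103252713 to 103275270), the alpha chain of the classical fibronectin receptor, had 63.3, 67.2 and 68.2 CPM in control, 129, 103 and 110 in LPS and 115 and 83.7 in dual-treated mice. All treated mice lay above the controls, and the treated groups overlapped. It was higher than control by 0.78 (SE 0.133, adjusted p = 0.00062) with LPS and by 0.59 (SE 0.147, adjusted p = 0.0249) with the dual treatment. The latter fell short of the threshold when any control mouse was left out, and was 0.31 without dual-treated mouse 2 (adjusted p = 0.23).

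**Figure D3:**
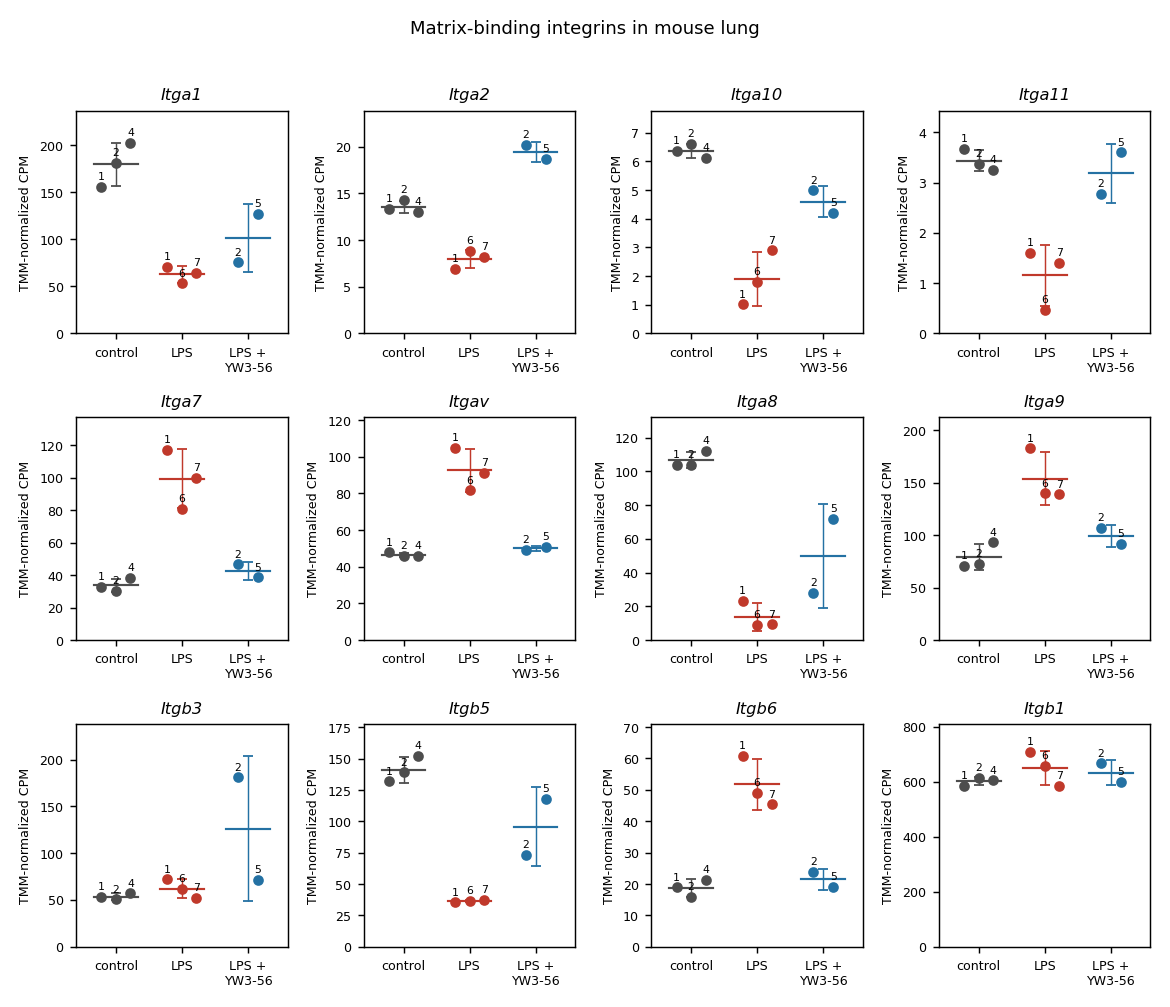
TMM-normalized CPM (vertical axis, linear from 0) of 12 matrix-binding integrin genes is plotted in each mouse by group (horizontal axis), with mouse numbers beside the points and the group mean ± SD as lines. Itgav, Itgb6, Itga7 and Itga9 are highest in the LPS mice, Itga8, Itgb5, Itga1, Itga2, Itga10 and Itga11 are lowest there, and Itgb3 is highest in dual-treated mouse 2.

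Of the type I cadherins, the classical adhesion molecules, Cdh1 (ENSMUSG00000000303, chromosome 8, 107329941 to 107396880) encodes E-cadherin of the epithelium and was by far the most abundant per length. It had 296, 298 and 301 CPM in control, 954, 722 and 783 in LPS and 203 and 222 in dual-treated mice. LPS mice lay above all controls, dual-treated mice lay below them, and no groups overlapped. Cdh1 rose with LPS by 1.46 (SE 0.124, adjusted p = 7.89e-06) and was lower in dual-treated than in the LPS lungs, with a log2FC of -1.95 (SE 0.146, adjusted p = 9.79e-06). LPS mouse 1, with a squamous marker sum of 36.0 CPM, had the highest Cdh1 value. In that LPS mouse alone the log2FC against control was 1.68. The part of squamous tissue in the values of Cdh1 was not tested. In dual-treated against control lungs the log2FC of -0.49 (SE 0.138, adjusted p = 0.0407) lost its call when any control mouse or dual-treated mouse 2 was left out, with adjusted p from 0.0788 to 0.149.

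Cdh3, which encodes P-cadherin of basal epithelium, lies next to Cdh1 on chromosome 8 (its end at 107283929 and the start of Cdh1 at 107329941). It was called in no comparison, with 4.36 to 13.9 CPM over the 8 mice and a log2FC of 0.40 with LPS. In dual-treated against control lungs its log2FC was 0.85 (SE 0.312, adjusted p = 0.0945), with both dual-treated mice above every control mouse. Cdh2 (ENSMUSG00000024304, chromosome 18, 16700793 to 16942381), the N-cadherin of mesenchymal and neural cells, had 5.43, 5.73 and 4.46 CPM in control, 1.6, 2.31 and 2.51 in LPS and 2.68 and 2.94 in dual-treated mice. All treated mice lay below the controls, and the dual-treated mice lay just above the LPS mice. Its log2FC was -1.28 (SE 0.244, adjusted p = 0.00123) with LPS, while the dual-treated value of -0.89 (SE 0.269, adjusted p = 0.0524) against control missed the threshold and passed it with DESeq2 (adjusted p = 0.0227). Cdh4, R-cadherin, had 1.04 to 3.38 CPM and was not called. Cdh15, M-cadherin of muscle, was untested, with 0, 4 and 3 counts in control, 7, 7 and 20 in LPS and 1 and 3 in dual-treated libraries, the most being in LPS mouse 7, where skeletal muscle markers summed to 1044 CPM.

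Of the 12 type II cadherins only 4 were tested, and 8 of the 9 untested members belong here. Cdh11 (ENSMUSG00000031673, chromosome 8, 103358726 to 103512687), the cadherin of fibroblasts, was the most abundant of them per length. It had 51.7, 64.6 and 55.6 CPM in control, 36.7, 35.3 and 32.1 in LPS and 26.9 and 36.2 in dual-treated mice. All treated mice lay below the controls, and the treated groups overlapped. It fell by 0.72 on the log2 scale with LPS (SE 0.134, adjusted p = 0.00105) and by 0.86 with the dual treatment (SE 0.152, adjusted p = 0.00563). Cdh6 (ENSMUSG00000039385, chromosome 15, 13028787 to 13174004), the K-cadherin of kidney, was low, with 0.685, 0.798 and 1.38 CPM in control, 3.2, 2.02 and 1 in LPS and 0.272 and 0.483 in dual-treated mice. LPS mouse 7 overlapped the controls, and both dual-treated mice were lowest, at 6 and 11 counts. It was lower in dual-treated than in the LPS lungs, with a log2FC of -2.43 (SE 0.617, adjusted p = 0.00759). The log2FC with LPS was 1.11 (SE 0.489, adjusted p = 0.0689) and was called without LPS mouse 7 (1.45, adjusted p = 0.0175) and in LPS mouse 1 alone (1.74, adjusted p = 0.0244). Cdh22 and Cdh24, with 0.415 to 1.91 and 2.54 to 5.58 CPM, were called in no comparison.

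The remaining cadherins differ in structure from the classical kind. Cdh13 (ENSMUSG00000031841, chromosome 8, 119010328 to 120051660), T-cadherin, which is held to the membrane by a lipid anchor and binds adiponectin, was the most abundant of them per length. It had 38.5, 30.4 and 35.8 CPM in control, 56, 41.3 and 33 in LPS and 17.8 and 16.2 in dual-treated mice. LPS mice overlapped the controls, and both dual-treated mice lay below all 6 others. In dual-treated lungs it was lower, with a log2FC of -1.03 (SE 0.21, adjusted p = 0.0106) against control and -1.35 (SE 0.213, adjusted p = 0.000527) against LPS. The log2FC with LPS was 0.32 (SE 0.18, adjusted p = 0.147), and it was called without LPS mouse 7 (0.49, adjusted p = 0.0201) and in LPS mouse 1 alone (0.69, adjusted p = 0.00638).

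Cdh26 (ENSMUSG00000039155, chromosome 2, 178072324 to 178129159), a cadherin of epithelium, showed a like pattern at a lower level. Its values were 3.96, 4.46 and 3.13 CPM in control, 3.03, 3.58 and 4.52 in LPS and 0.862 and 1.01 in dual-treated mice. Control and LPS mice overlapped, and both dual-treated mice lay below all 6 others. Its log2FC was -2.03 (SE 0.315, adjusted p = 0.00281) in dual-treated lungs against control and -1.98 (SE 0.316, adjusted p = 0.000568) against LPS. Cdh23 (ENSMUSG00000012819, chromosome 10, 60138527 to 60532269), a tip-link protein of hair cells that is also found in other tissues, had 1.37, 1.64 and 1.38 CPM in control, 7.42, 6.99 and 6.36 in LPS and 5.45 and 4.52 in dual-treated mice. All treated mice lay above the controls, and the dual-treated mice lay below the LPS mice. It rose by 2.24 (SE 0.208, adjusted p = 1.33e-05) with LPS and by 1.76 (SE 0.223, adjusted p = 0.000985) with the dual treatment, and its log2FC between the treated groups was -0.47 (SE 0.216, adjusted p = 0.0853). Cdh17, the cadherin of liver and intestine, was near the limit of detection, with 4, 4 and 2 counts in control, 17, 20 and 18 in LPS and 12 and 11 in dual-treated libraries. It is counted among the members called higher with LPS, but it passed the filter on low counts through the treated libraries alone, so no fold is given. Cdh16, the kidney-specific cadherin, had 3.74 to 10.7 CPM and was not called, and LPS mouse 1 alone stayed at the control level, with 10.5 CPM against 4.97 and 3.74 in LPS mice 6 and 7. Without LPS mouse 1 its log2FC with LPS was called at -1.21 (adjusted p = 0.00087). With LPS mouse 1 as the only LPS mouse, Cdh16 was lower in dual-treated than in the LPS lungs (-0.97, adjusted p = 0.00706).

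**Figure D4:**
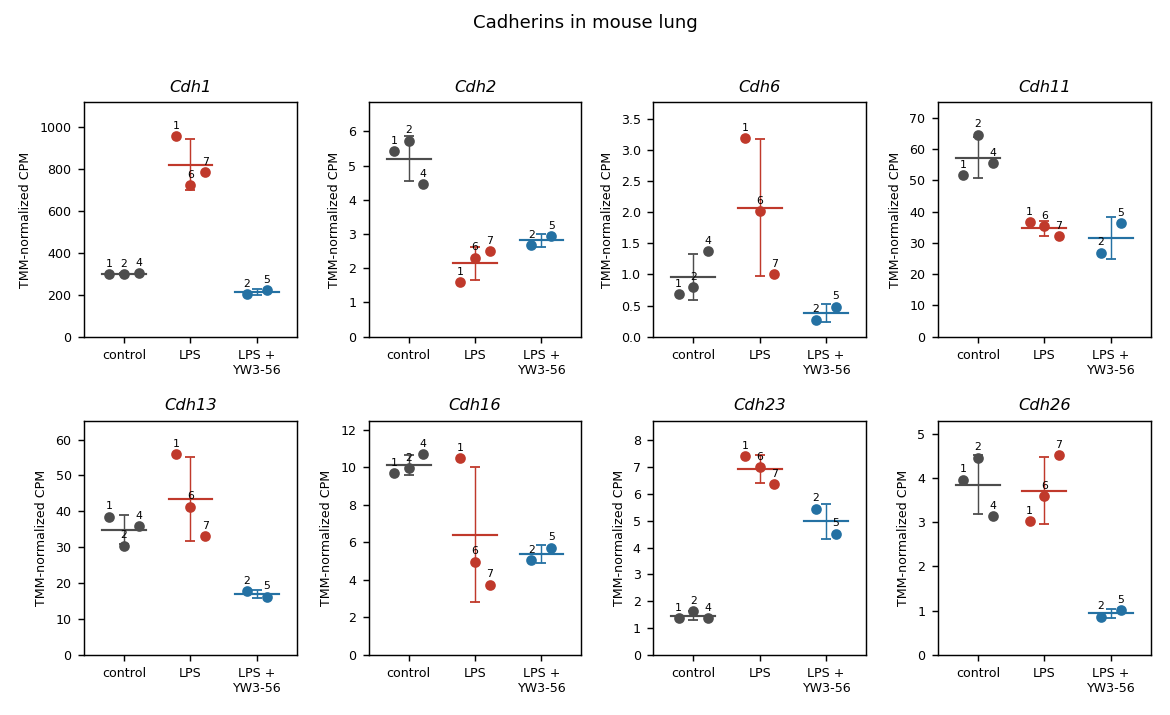
TMM-normalized CPM (vertical axis, linear from 0) of 8 cadherin genes is plotted in each mouse by group (horizontal axis), with mouse numbers beside the points and the group mean ± SD as lines. Cdh1 is highest in the 3 LPS mice, Cdh13 and Cdh26 are lowest in the dual-treated mice, and Cdh16 is at the control level in LPS mouse 1.

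Markers of the resident cells that carry matrix integrins and cadherins moved as well. Of 6 endothelial markers 5 were lower with LPS and 5 higher in dual-treated than in the LPS lungs, and they summed to 4060, 4273 and 4515 CPM in control, 1539, 1357 and 1417 in LPS and 3297 and 3800 in dual-treated mice, with Cldn5 the most abundant per length. Tie1 and Egfl7 led, at -2.97 and -2.66 with LPS and at 2.82 and 2.22 in dual-treated against LPS lungs. The sum for 6 fibroblast markers was 1087, 1164 and 1065 CPM in control, 856, 1013 and 938 in LPS and 1389 and 945 in dual-treated mice, with 1 higher and 3 lower with LPS and 3 higher in dual-treated than in the LPS lungs, Col3a1 first at 1.32, with dual-treated mouse 2 well above mouse 5. Per length the most abundant was Pdgfra in control and LPS lungs and Col3a1 in dual-treated lungs. Smooth muscle and pericyte markers summed to 318, 403 and 341 CPM in control, 315, 340 and 369 in LPS and 291 and 282 in dual-treated mice (Acta2 the most abundant per length), with 1 of 6 higher and 2 lower with LPS and 2 higher and 4 lower in dual-treated than in the LPS lungs. Alveolar type 1 markers summed to 4732, 4414 and 4537 CPM in control, 3772, 3183 and 2237 in LPS and 2491 and 3253 in dual-treated mice, with Ager the most abundant per length, 1 of 6 higher and 3 lower with LPS (Rtkn2 at -5.83), 2 lower with the dual treatment against control, and 3 higher and 2 lower against LPS. Alveolar type 2 markers, with Sftpc the most abundant per length, summed to 37136, 31015 and 38988 CPM in control, 25802, 17993 and 14469 in LPS and 18721 and 29771 in dual-treated mice, with 5 of 6 lower with LPS and 2 higher in dual-treated than in the LPS lungs. Airway epithelium markers, with Scgb1a1 the most abundant per length, summed to 30920, 39263 and 36587 CPM in control, 67482, 57101 and 55749 in LPS and 23902 and 26612 in dual-treated mice, a sum made up almost wholly of Scgb1a1. Of 7, 4 were higher and 2 lower with LPS, among them Scgb1a1 (0.79), Scgb3a2 (0.98) and Krt5, which was high in LPS mice 6 and 7 only (0.119, 17.2 and 23.6 CPM in LPS mice), and 1 was lower with the dual treatment against control and 4 against LPS. Mesothelial markers (Msln the most abundant per length) summed to 497, 402 and 437 CPM in control, 386, 340 and 292 in LPS and 342 and 522 in dual-treated mice, with 3 of 4 lower with LPS and 2 higher in dual-treated than in the LPS lungs. Markers of nerve summed to 63.7, 53.8 and 59.1 CPM in control, 191, 137 and 151 in LPS and 56 and 60.5 in dual-treated mice, and of 3 tested only Mbp, the most abundant, was higher with LPS, by 1.55, and Mbp was lower in dual-treated than in the LPS lungs (-1.57). In dual-treated against control lungs 1 endothelial marker was higher and 1 lower, 1 fibroblast and 1 smooth muscle marker were lower, and 0 alveolar type 2, mesothelial or nerve markers were called by edgeR. The part of these cells in the values of the members was not tested.

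Partners of the integrins inside the cell were taken from a list of 26 activators and adaptors, all tested. With LPS 12 were higher and 8 lower (46.2% and 30.8%, beside 32.6% and 33.9% of all tested genes), and in dual-treated against control lungs 10 were higher and 2 lower (38.5% and 7.69%, beside 9.13% and 7.02%). In dual-treated against LPS lungs 10 were higher and 5 lower (38.5% and 19.2%, beside 31.7% and 27.4%). Their median log2FC was 0.13, 0.10 and -0.03 in these comparisons. Rasgrp2, the activator of Rap1 in platelets and leukocytes, had 172, 144 and 181 CPM in control, 27.2, 37.1 and 27.7 in LPS and 60.5 and 112 in dual-treated mice. Rasgrp2 and Tln2, a talin, fell with LPS by 2.43 and 2.30 on the log2 scale and led the rises in dual-treated against LPS lungs with Lims2, at 1.49, 1.62 and 1.46. Tln2 had 10.4 and 32.2 CPM in the dual-treated and 7.36, 4.97 and 8.43 in the LPS mice, so its rise rests largely on dual-treated mouse 5. Fgr, a Src-family kinase of myeloid cells, rose by 1.96 (SE 0.221, adjusted p = 4.28e-05) with LPS, and in dual-treated against control lungs its log2FC was 2.86 and that of Apbb1ip 1.78.

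Of 22 integrin ligands 21 were tested, and Icam4 had 0 counts in every library. With LPS 6 were higher and 8 lower (28.6% and 38.1%, beside 32.6% and 33.9% of all tested genes), and in dual-treated against control lungs 0 were higher and 4 lower by edgeR (beside 9.13% higher and 7.02% lower). In dual-treated against LPS lungs 7 were higher and 7 lower (33.3% each, beside 31.7% and 27.4%). Icam2, the endothelial ligand of LFA-1, had 122, 138 and 136 CPM in control, 22.2, 13.3 and 18 in LPS and 120 and 225 in dual-treated mice. It fell by 2.88 on the log2 scale with LPS (adjusted p = 8.64e-06) and was higher by 3.27 (SE 0.265, adjusted p = 1.34e-05) in dual-treated than in the LPS lungs, and Lamc3, a laminin chain, moved likewise at -2.25 and 2.01. Madcam1, the ligand of alpha-4 beta-7, is counted among the ligands higher with LPS and those lower in dual-treated than in the LPS lungs. It held 1, 0 and 0 counts in control, 17, 16 and 15 in LPS and 7 and 0 in dual-treated libraries and passed the filter on low counts through the LPS libraries alone, so no fold is given. Lama3, Lama2 and Npnt, all ligands in basement membrane, were lower in dual-treated than in the control lungs, at -1.23, -0.87 and -0.70. Icam1 and Vcam1, chosen after their values were seen because they bind beta-2 and alpha-4 integrins, rose with LPS by 2.14 (SE 0.194, adjusted p = 1.14e-05) and 2.10 (SE 0.25, adjusted p = 6.08e-05), and in dual-treated against LPS lungs their log2FC was -1.51 and -1.38.

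Of 16 catenins and other cadherin partners 15 were tested. With LPS 2 were higher and 8 lower (13.3% and 53.3%, beside 32.6% and 33.9% of all tested genes), and in dual-treated against control lungs 0 were higher and 5 lower by edgeR (33.3% lower, beside 9.13% higher and 7.02% lower). In dual-treated against LPS lungs 6 were higher and 3 lower (40.0% and 20.0%, beside 31.7% and 27.4%). The median log2FC was -0.52, -0.42 and -0.23 in these comparisons. Jup, the plakoglobin that links cadherins to actin and keratin, had 415, 462 and 518 CPM in control, 94.9, 110 and 132 in LPS and 289 and 393 in dual-treated mice. Jup and Arvcf, a p120-family catenin, fell with LPS by 2.05 and 2.62 on the log2 scale, while Cdh1 rose, and were higher in dual-treated than in the LPS lungs by 1.60 and 1.70. Nectin1 fell with LPS by 1.58, Nectin4 was lower in dual-treated than in the LPS lungs at -0.66, and Ctnnd2, Nectin1 and Arvcf led the falls in dual-treated against control lungs, at -1.91, -0.92 and -0.92.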

How the data were processed

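The authors deposited 1 table of gene counts per library. Their processing notes name FastQC 0.11.9 and Trim Galore for read quality and trimming, HISAT2 2.2.1 for alignment and featureCounts 2.0.1 for counting; the strand setting and the handling of multi-mapping reads are not given in the sources used here. All else was computed here from the deposited counts. Of 55416 identifiers 54749 matched GENCODE M39 (GRCm39), and the 667 unmatched held 0.0533% of counts. Members were chosen by symbol among 21627 protein-coding genes.

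In R 4.3.3, genes passing filterByExpr of edgeR 4.0.16 (minimum count 10, total 15) were scaled by TMM and tested by quasi-likelihood F tests in 1 fit over 8 libraries with 1 group factor (3 control, 3 LPS and 2 dual-treated mice, each mouse 1 replicate, 5 residual degrees of freedom), with Benjamini-Hochberg adjustment over 18560 genes. The SE is the absolute log2FC over the square root of F. RPKM is CPM per kilobase of the union of exons. The code was tested on simulated data with 200 genes changed by 2 on the log2 scale, up and down in equal number. It recovered 87.0% and 83.5% of them in the comparisons with control. Many changes reported here were smaller, and a far larger share of genes was called with LPS. These percentages therefore do not give the share of real changes found in these data.

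Values in every mouse are given for members with a mean of at least 1 CPM and a call in any comparison, and for the most abundant tested member of each role group. For partner and marker lists the 3 largest called changes, the most abundant marker and markers at 0 could be named, and the other lists are given by count and sum. The members and lists were chosen with earlier results of these data known. Alternatives tried were library size only, relative log expression factors, DESeq2 1.42.0, no filter, a mean of at least 1 CPM, 2 rules with a fold change over 2, a fit of only the groups compared, leaving out each mouse, leaving out LPS mice 6 and 7, and the longest transcript as gene length.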

Additional observations from a re-analysis of the deposited data

How the results depend on the processing

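Most values for the tested members kept their direction and their side of the threshold: 521 with LPS, 424 in dual-treated against control and 475 in dual-treated against LPS lungs. The threshold was lost in 11, 40 and 24 and newly passed in 22, 18 and 8, and a value that was not called moved in sign in 14, 10 and 22. With library size only, Itgb1 in dual-treated against LPS lungs turned from -0.04 to 0.29 (edgeR adjusted p = 0.034), while the median over all genes was then 0.383. Members lower in dual-treated than in the control lungs numbered 7 (beside 7.02% of all tested genes), 11 without the filter on low counts (4.82%) and 3 with a fold change over 2 and an adjusted p under 0.05 (1.90%). Leaving out each control or dual-treated mouse in turn gave 5 to 7 members higher (8 with all mice), beside 4.04% to 8.66% of all genes, and 3 to 10 lower, beside at most 7.77%. Members higher in dual-treated than in the LPS lungs numbered 10 (beside 31.7% of all genes), and 6 without LPS mice 6 and 7 (25.9%). The cause of these changes was not tested. Where a group was left with 1 mouse, that mouse was assumed to vary like the other groups. No paired analysis was possible, since the methods divide separate mice among the groups at random and the labels state no pairs. With 3, 3 and 2 mice, differences not called may be real, and members at a few counts per library cannot be ranked.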
